A study of Mus musculus with 8 samples.

Results

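Transcript levels 15 min after the addition of lipopolysaccharide (LPS) were compared with those of unstimulated cells in RAW264.7, an established mouse macrophage-like tumour cell line. The untreated culture (0 min) and the culture treated with LPS from Escherichia coli at 100 ng/ml for 15 min are 2 of the 8 libraries of a time course that ran to 120 min, and each time point was 1 culture sequenced once. RNA was freed of ribosomal RNA and sequenced with a strand-specific kit, and the labels call the fraction cytoplasmic whereas the study's methods speak of total RNA. The genes followed were the 11091 of 23143 listed genes that had at least 50 reads in either library, of which 11045 had a transcript length and entered the comparison. At the edge of this choice, 19 genes had a larger count of exactly 50 and 13 genes had 49.

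LPS is a component of the outer membrane of Gram-negative bacteria. Macrophages bind it through CD14 and the TLR4 receptor with its partner MD-2, and the adaptor MyD88 then passes the signal to the IκB kinases, which free the transcription factor NF-κB, and to the ERK, p38 and JNK kinases. Immediate early genes are those whose transcription is switched on by such kinases and by latent factors without new protein synthesis, and many of them encode transcription factors or inhibitors of the same pathway.

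With 1 culture per time point there is no replicate check, and the calls below rest on no p-value. Read counts were divided by size factors, and the ratio of 15 min to 0 min of each gene was divided by the median ratio of the 200 genes nearest to it in transcript length. This quotient is called the corrected ratio here. A gene was called higher when its corrected ratio reached 1.5 and the exact 95% interval, divided by the same median, excluded 1. It was called lower by the mirror rule. The intervals cover counting error only, not the variation between cultures. In bulk RNA, fewer cells of a type and less RNA per cell cannot be told apart.

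The libraries held 131039483 reads at 0 min and 123434945 at 15 min. The ribosomal RNA precursor Rn45s took 8.59% of the counts at 0 min and 12.96% at 15 min. Its share lay between 8.18% and 9.11% at 30, 60 and 120 min and between 15.80% and 20.53% at 45, 75 and 90 min. The median log2 ratio of 15 min to 0 min ran from -0.13 in the tenth of genes with the shortest transcripts (70 to 1142 bases) to 0.18 in the tenth with the longest (6003 to 123179 bases), which is why ratios were taken against genes of like length. Whether the ribosomal share and the length trend have one source was not tested. Of 8 macrophage markers, 7 were counted well enough to be compared and none was called, with corrected log2 ratios between -0.12 and 0.09. Mrc1, the mannose receptor, had 24 and 30 reads. The markers of T cells, B cells, fibroblasts, epithelium and endothelium were all under 50 reads in both libraries.

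**Figure D1:**
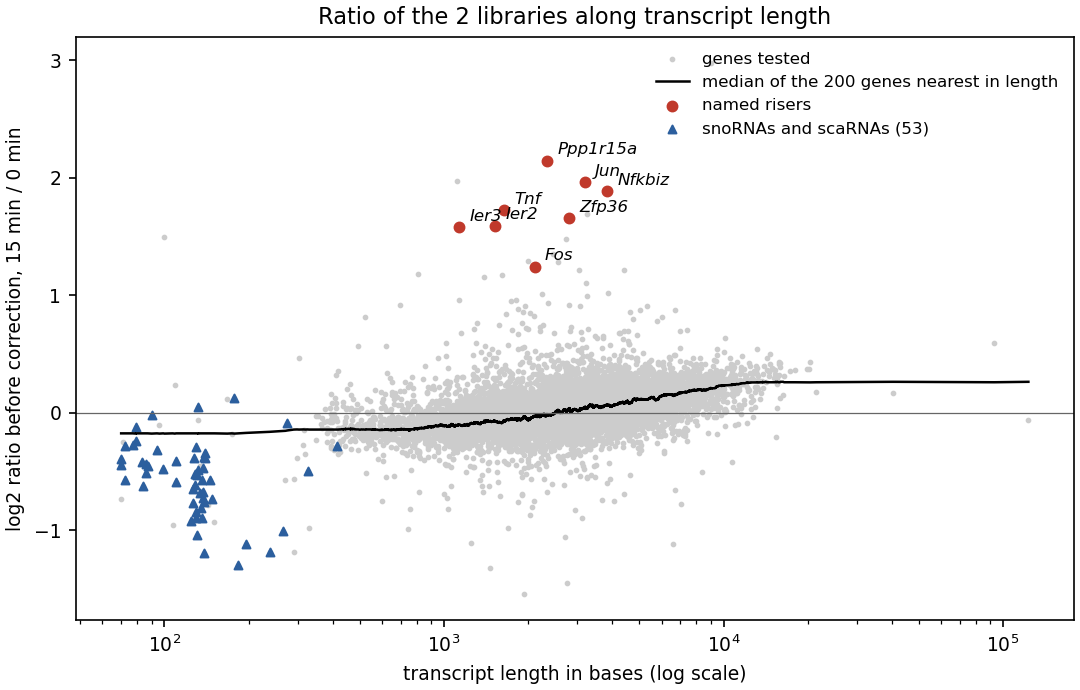
Log2 ratio of normalized read counts, 15 min over 0 min, before the correction (vertical axis) against transcript length in bases (horizontal log axis) for the 11045 genes compared; each point is a gene and the black line is the median of the 200 genes nearest in length. The line climbs with length, the 8 named risers lie far above it, and 51 of the 53 small nucleolar and Cajal body RNAs (triangles) lie below 0.

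Few genes had moved after 15 min. By the rule above, 83 of 11045 genes (0.751%) were called higher and 53 (0.48%) lower, together 1.23%. Genes with under 1000 reads in both libraries made up 64 of the calls higher and 45 of those lower. In the 479 genes with a larger count of 50 to under 100 reads, 28 were higher and 29 lower, so that both directions were about as frequent. Among the 2727 genes with at least 10000 reads, 7 were higher and none lower, where a count of 0 came from this rule and not from a replicated test. The genes with at least 1000 reads, a limit chosen after the data were examined, numbered 8654, and 19 of them (0.22%) were called higher and 8 (0.0924%) lower. The middle 95% of these 8654 genes had corrected ratios between 0.867 and 1.17, with an SD of 0.13 on the log2 scale.

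**Figure D2:**
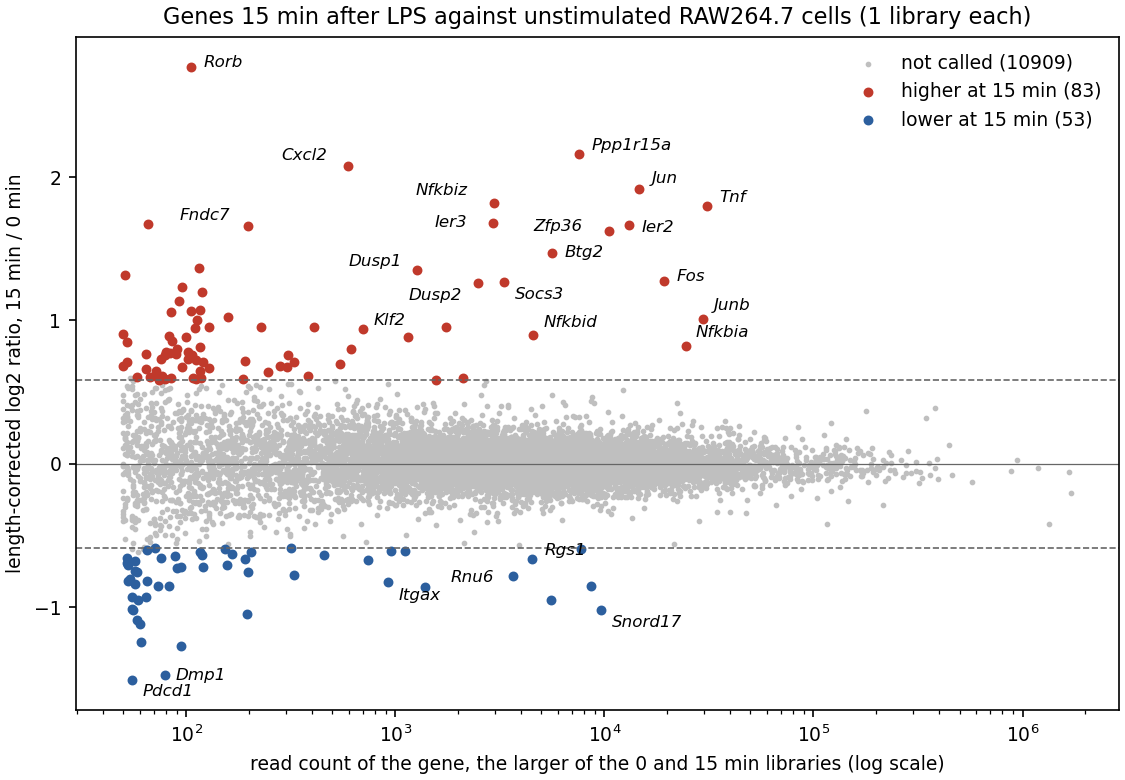
Length-corrected log2 ratio of 15 min over 0 min (vertical axis) against the larger of each gene's read counts in the 2 libraries (horizontal log axis); each point is 1 of 11045 genes, red points were called higher (83), blue points lower (53), and the dashed lines mark 1.5-fold. The scatter narrows with count, and Ppp1r15a, Jun, Tnf, Ier2 and Zfp36 stand at the upper right, away from the cloud.

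The 19 genes called higher with at least 1000 reads were, from the highest corrected ratio to the lowest, Ppp1r15a, Jun, Nfkbiz, Tnf, Ier3, Ier2, Zfp36, Btg2, Dusp1, Fos, Socs3, Dusp2, Junb, Rhob, Nfkbid, Arc, Nfkbia, Hmgn5 and Alyref2. Of these, 15 belonged to the lists of early response genes, cytokines and inhibitors described below. The lists were chosen with earlier results of these data known, and they hold Tnf, Ier3, Zfp36 and Nfkbiz. Shares of called genes on the lists, here and below, are therefore descriptions and lend the calls no support. Tnf, Ier3, Zfp36 and Nfkbiz are the genes by which the early response is marked in this series. Their rise is therefore given as a description. All of them were called higher in the library labelled 15 min.

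Ppp1r15a, also known as Gadd34, encodes the regulatory subunit of a phosphatase that restores protein synthesis after stress, and it had the largest corrected ratio among the well-counted genes. It lies on chromosome 7 from 45522917 to 45526268 (GRCm38) and spans 3352 bases with 3 exons. It was counted by 1907 reads at 0 min and 7587 at 15 min, or 1631 and 7220 normalized reads. The corrected ratio was 4.47 (95% interval 4.25 to 4.70). It went on to 78032 and 78094 normalized counts in the next 2 libraries, so that the 15 min level was a small part of the later one. Tulp2, which overlaps it, had 1 and 2 reads.

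The AP-1 transcription factors are dimers of Jun and Fos family proteins that kinases of the MAP kinase families activate. On the list of AP-1 and ATF factors, 13 of 16 genes could be compared and 3 were called higher, none lower. These were 23.1% of those compared, against 0.751% over all genes, and the median corrected log2 ratio was 0.08 against 0.00. The 3 were Jun, Fos and Junb. Jun, the defining partner, went from 4190 to 14661 reads, a corrected ratio of 3.78 (3.65 to 3.91). Its normalized counts in the order of time were 3585, 13951, 95944, 126315, 50507, 11399, 4892 and 2640. Jun was thus above its starting level up to 90 min and below it at 120 min.

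Fos, the best known immediate early gene, was already at 9041 reads without LPS and reached 19254 at 15 min, a corrected ratio of 2.42 (2.36 to 2.48). In normalized counts it stood at 7734 and 18322, then at 46927 and 47988 at 30 and 45 min and at 7127 at 60 min. From 75 min on it lay between 1683 and 1854, under the level of the unstimulated cells. Junb rose from 17069 to 29791 reads, with a corrected ratio of 2.02 (1.98 to 2.06), and stayed between 67701 and 151042 normalized counts from 30 min on. Jund, which is expressed more steadily, had a corrected ratio of 1.35 (1.31 to 1.40) and was not called. Fosb had 8 and 32 reads and fell under the minimum, and Atf3, an ATF family repressor induced later in many stress responses, had a corrected ratio of 1.06.

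Among 29 other immediate early genes, 25 could be compared, 6 (24%, against 0.751% over all genes) were called higher and 1 (4%, against 0.48%) lower, with a median corrected log2 ratio of 0.21. Ier3, which encodes a short-lived regulator of cell survival, went from 1091 to 2931 reads, and its corrected ratio was 3.21 (2.99 to 3.44). Ier2, a gene of 1 exon whose product is nuclear, went from 4855 to 13162 reads with a corrected ratio of 3.17 (3.06 to 3.27). Both genes were at their highest soon after, Ier2 at 30 min with 69320 normalized counts and Ier3 at 45 min with 20139. Btg2, an antiproliferative protein that recruits the mRNA deadenylase, rose from 2244 to 5620 reads, or 2.77-fold (2.64 to 2.91) after correction.

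The zinc finger gene Egr1 was at 57 reads in unstimulated cells and at 119 at 15 min. Its corrected ratio of 2.30 had the wide interval of 1.66 to 3.20, and it reached 1980 normalized counts at 45 min. Klf2, a zinc finger factor that restrains macrophage activation, moved from 423 to 702 reads, a corrected ratio of 1.92 (1.70 to 2.17). The orphan nuclear receptor Nr4a1 moved from 377 to 544 reads, a corrected ratio of 1.62 (1.42 to 1.85). Their relatives did not all follow at 15 min: Egr2 had a corrected ratio of 1.09, Egr3 one of 1.24, and Nr4a3 had 4 reads in each library. Myc and Id3 had corrected log2 ratios of 0.37 and 0.48 and were not called. Rgs1, a GTPase activator that damps signalling of G protein-coupled receptors, was the gene called lower.

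The inhibitors of NF-κB formed the next group. All 20 listed NF-κB subunits and inhibitors could be compared, and 3 (15%, against 0.751% over all genes) were called higher, none lower, with a median corrected log2 ratio of 0.04. Nfkbiz, which encodes the nuclear protein IκBζ, a cofactor needed for a part of the secondary response genes, went from 896 to 2980 reads. Its corrected ratio was 3.53 (3.27 to 3.81). From 767 and 2836 normalized counts it climbed to 44318, 106061 and 122089 in the 30, 45 and 60 min libraries. Nfkbia, the gene of the classical inhibitor IκBα that holds NF-κB in the cytoplasm, went from 16199 to 24456 reads with a corrected ratio of 1.77 (1.74 to 1.81). Nfkbid, the gene of the nuclear inhibitor IκBNS, went from 2817 to 4574 reads with a corrected ratio of 1.86 (1.78 to 1.95).

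Tnfaip3, whose product A20 removes ubiquitin chains from signalling proteins, had 1908 and 2658 reads. Its corrected ratio of 1.46 (1.38 to 1.55) stopped short of the limit, although it stood at 51276 normalized counts at 30 min. The subunit genes Rela, Rel, Relb, Nfkb1 and Nfkb2 had corrected log2 ratios between -0.03 and 0.06. The 3 genes of this list called higher at 15 min thus all encode proteins of the IκB family, and none of the 5 subunit genes was called. Nfkbib and Nfkbie, IκB genes on the study's list of feedback inhibitors, were not among the genes called. With 0.751% of all genes called higher, no call is expected among 5 genes, so this says little about the subunits.

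Inhibitors that act outside the NF-κB family were seen as well. Zfp36 encodes tristetraprolin, which binds AU-rich elements in Tnf and other cytokine mRNAs and hastens their decay. It went from 3708 to 10501 reads, a corrected ratio of 3.09 (2.97 to 3.21), and reached 84459 normalized counts at 45 min. It was the 1 of 15 mRNA-binding regulators that was called (6.67%, against 0.751% over all genes), and the median corrected log2 ratio of these 15 was 0.09. Zfp36 is itself a marker gene of the early response. Zc3h12a, which encodes the ribonuclease Regnase-1, had a corrected ratio of 1.47 (1.33 to 1.63). Hnrnpd, the gene of the AU-rich element binding protein AUF1, had 1.43 (1.39 to 1.47), and neither was called.

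The dual-specificity phosphatases remove phosphate groups from MAP kinases. Of 17 listed phosphatase and ERK feedback genes, 14 could be compared and 2 (14.3%, against 0.751% over all genes) were called higher, with a median corrected log2 ratio of 0.10. Dusp1, which inactivates p38 and JNK, went from 580 to 1277 reads with a corrected ratio of 2.55 (2.31 to 2.82), and Dusp2 went from 1224 to 2482 reads with one of 2.39 (2.24 to 2.57). Both peaked at 45 min, Dusp1 at 37988 and Dusp2 at 18921 normalized counts. Dusp5 and Dusp16 had corrected log2 ratios of 0.29 and -0.05, and their normalized counts were highest at 120 min and 75 min.

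Socs3, an inhibitor of cytokine receptor signalling through JAK kinases, had been listed with the late LPS genes. It went from 1513 to 3314 reads, a corrected ratio of 2.40 (2.26 to 2.56). In contrast to Jun and Fos, its normalized count was larger at each later time than at 15 min and highest at 120 min, with 65652. The study's own list of feedback inhibitors had 48 of 53 genes that could be compared, and 8 were called higher and none lower, 16.7% of those compared against 0.751% over all genes. The 8 included the marker genes Nfkbiz, Ier3 and Zfp36. The median corrected log2 ratio of the 48 was 0.05. By its methods, the study collected this list from reviews and a literature search.

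**Figure D3:**
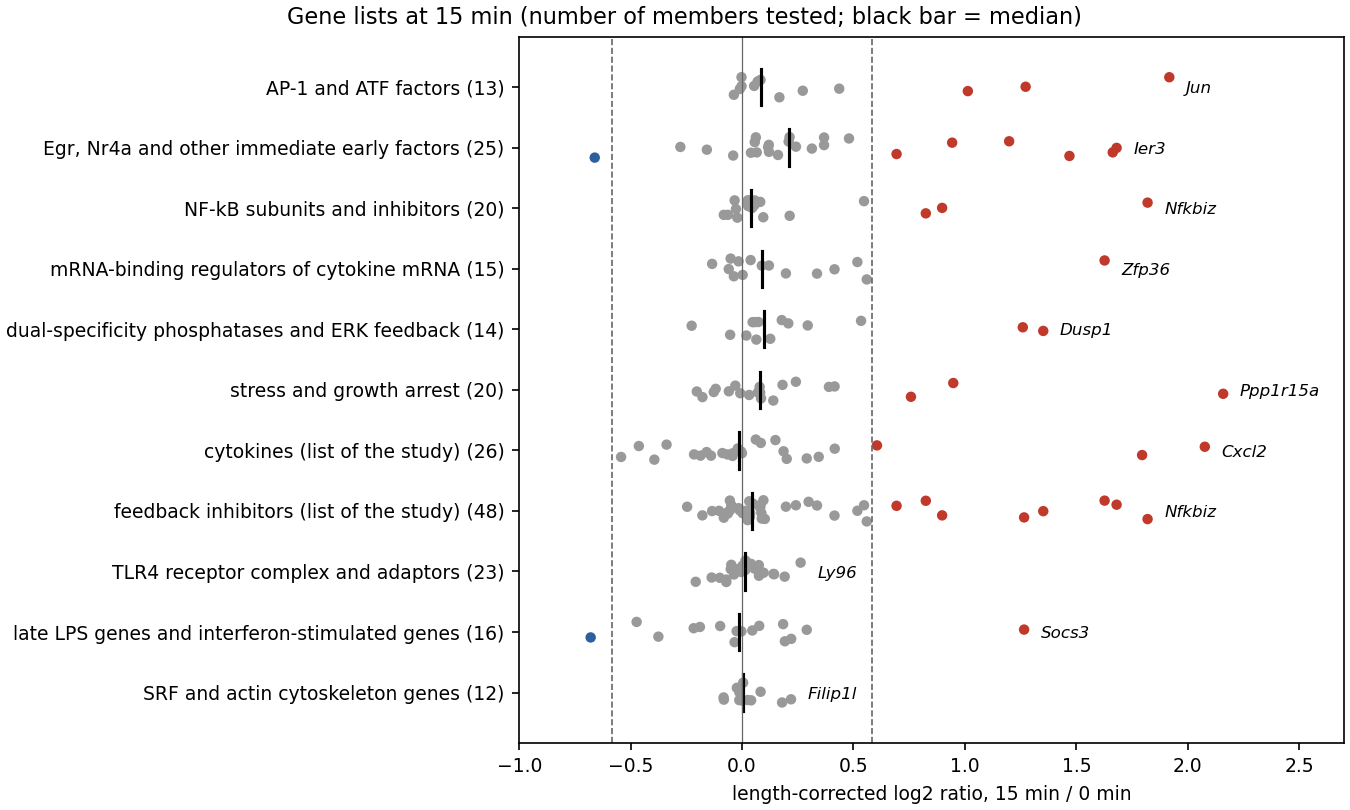
Length-corrected log2 ratio of 15 min over 0 min (horizontal axis) for the members of 11 gene lists that could be compared, with their number in parentheses; each point is a gene, red was called higher, blue lower and grey neither, the black bar is the median of the list, and the dashed lines mark 1.5-fold. Between 1 and 8 genes of 9 of the lists stand to the right of the 1.5-fold line, none of the TLR4 and the SRF and actin lists does, and the medians stay between -0.01 and 0.21.

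Most cytokine genes had too few reads to be compared at this time. Of 114 genes on the study's cytokine list, 88 were under the minimum, among them 53 without a read in either library. Only counting error is covered, but a count of 0 allows up to 3 reads, or 2.57 normalized counts at 0 min and 2.85 at 15 min. Of the 26 that could be compared, 3 (11.5%, against 0.751% over all genes) were called higher and none lower, and their median corrected log2 ratio was -0.01. Among the 3, Il1b reached the minimum of 50 reads only in the 15 min library. Tnf, the gene of tumour necrosis factor, was already counted by 10429 reads in unstimulated cells and rose to 31052, a corrected ratio of 3.47 (3.39 to 3.55). Its normalized counts were 8922, 29548, 188930, 270564, 84755, 108231, 196879 and 359742 in the order of time. The 15 min value lay above the untreated one and below each later value.

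Cxcl2, a chemokine that attracts neutrophils, went from 169 to 595 reads with a corrected ratio of 4.22 (3.55 to 5.03), and it reached 23209 normalized counts in the 30 min library and 149203 in the last one. Il1b, the gene of interleukin-1β, passed the rule with little room. It had 45 and 58 reads and a corrected ratio of 1.52 (1.01 to 2.30), and before the correction its interval of 0.955 to 2.17 held 1. Since Il1b entered the comparison through the library in which it was higher, its call is a description only. The chemokine genes Ccl2, Ccl4 and Ccl9 had corrected ratios of 0.686, 0.761 and 0.791 and were not called. Il6 had 1 and 0 reads, Ifnb1 0 and 1, and Il12b, Csf2 and Cxcl1 had none in either library.

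Genes of stress and growth arrest supplied Ppp1r15a and 2 others among 20 that could be compared (15%, against 0.751% over all genes), with a median corrected log2 ratio of 0.08. Phlda1, a gene induced by growth factors, had 65 and 110 reads and a corrected ratio of 1.93 (1.41 to 2.66). Ddit4, an inhibitor of mTORC1, had 210 and 308 reads and a corrected ratio of 1.69 (1.41 to 2.03). Gadd45b and Plk2 had corrected log2 ratios of -0.18 and -0.20.

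The other well-counted risers were Rhob, Arc, Hmgn5 and Alyref2. Rhob, a short-lived small GTPase, went from 1020 to 1753 reads with a corrected ratio of 1.94 (1.79 to 2.09). Arc, known as an immediate early gene of neurons, went from 686 to 1155 reads with one of 1.85 (1.68 to 2.03). Hmgn5, a nucleosome-binding protein, and Alyref2, an mRNA export adaptor, were at the limit with corrected ratios of 1.515 and 1.501. Just outside it lay Mir17hg, the host transcript of a miRNA cluster, with a corrected ratio of 1.496 and 1941 and 2717 reads.

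Genes of the pathway upstream were compared in the same way. Of 24 listed genes of the TLR4 receptor complex and its adaptors, 23 could be compared and none was called in either direction, with a median corrected log2 ratio of 0.01 and a range from -0.21 (Tab1) to 0.26 (Ly96, the gene of MD-2). Tlr4 itself had 8590 and 8648 reads. The 12 comparable genes of the list of SRF and actin cytoskeleton genes gave no call, with corrected log2 ratios from -0.08 to 0.22. Of the 14 reference genes none was called. With 0.751% of all genes called higher and 0.48% lower, lists of this size are expected to hold about no call, so that these counts say little about their members.

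Late LPS genes and interferon-stimulated genes held 1 gene called higher, Socs3, and 1 called lower among 16 that could be compared (6.25% each, against 0.751% and 0.48% over all genes), and 14 others were under the minimum. The lower gene was Isg15, a ubiquitin-like protein, with 57 and 29 reads and a corrected ratio of 0.624, whose interval of 0.385 to 0.993 ended close to 1. Of the nuclear-retained RNAs, 3 could be compared, Malat1, Kcnq1ot1 and Neat1, with corrected log2 ratios of 0.39, 0.33 and 0.33, and none was called. Kcnq1ot1 is longer than nearly all genes, so that the 200 genes nearest in length are mostly much shorter.

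Most of the well-counted risers were higher still in later libraries. Of the 19, 12 were highest at 45 min and 3 at 120 min, and the libraries at 15, 30, 60 and 75 min were highest for 1 each. Over all 11045 genes compared, 1418 were highest at 45 min and 2905 at 120 min. The median normalized count of the 19 went from 1631 without LPS to 4353 after 15 min, then to 38815 and 47988 in the 30 and 45 min libraries, and was 16122 in the 60 min library. Of all 83 genes called higher, 16 were highest at 15 min, against 1623 of all 11045 genes compared. Genes chosen for a rise to 15 min are more likely to be highest there. Since the 0 min library enters each of these ratios, the later values are not an independent check of it, and no overlap was tested.

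**Figure D4:**
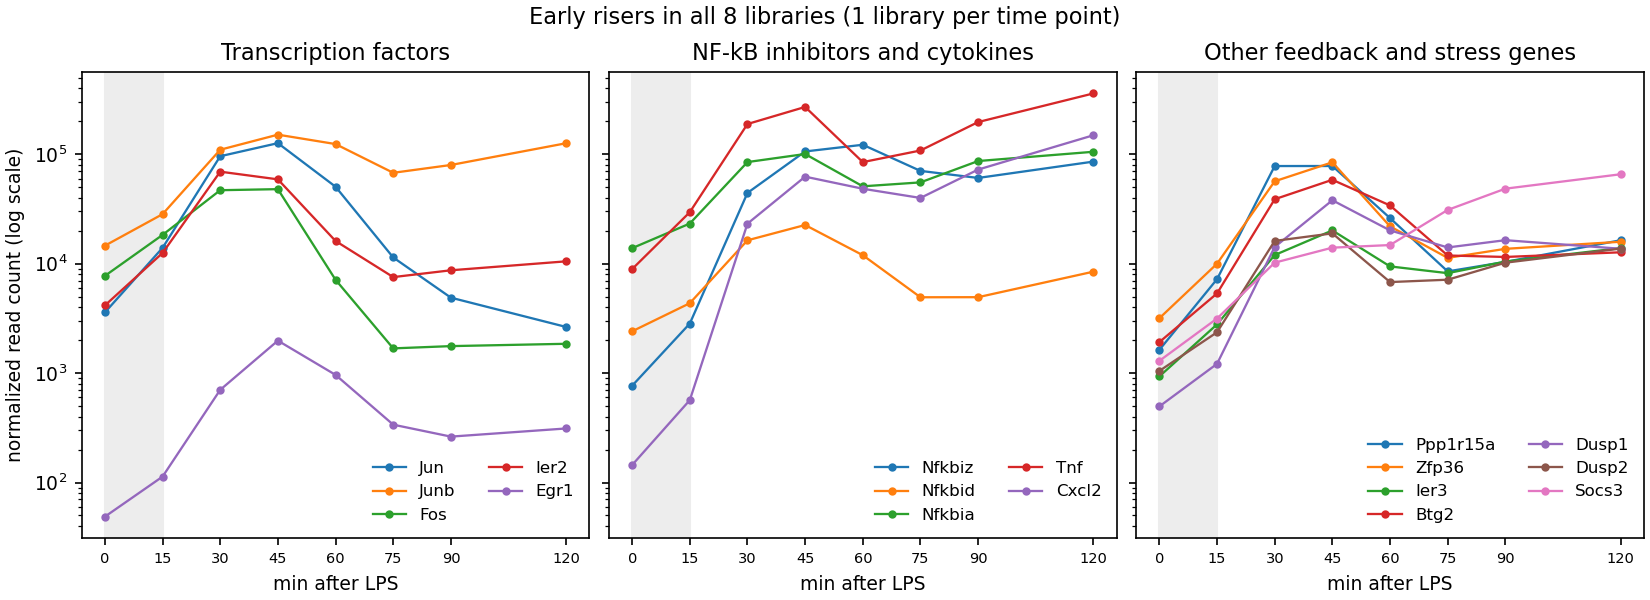
Normalized read count (vertical log axis) against minutes after LPS (horizontal axis) for 17 of the genes called higher at 15 min, in panels by function; each point is 1 library and the grey band spans 0 to 15 min. All 17 lines climb through the band and most climb more steeply between 15 and 30 min; Fos and Jun end below their first point, while Tnf, Cxcl2, Socs3 and Nfkbia end at their highest.

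The well-counted risers were short genes. Their median span on the genome was 3187 bases, against 23765 bases for all genes compared with at least 1000 reads, and 16 of 19 (84.2%) spanned under 5 kb, against 10.8%. They had a median of 3 exons against 10, and 5 of them had a single exon. Their transcripts were less different, with a median of 2039 bases against 2951. The correction used transcript length and not the span. Among all 83 genes called higher the median span was 5858 bases and 48.8% were under 5 kb. Nfkbiz was the longest of the 19, with 27580 bases on chromosome 16 and 14 exons.

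The sequence around the start sites was searched for 5 motifs. The NF-κB, SRF and CREB families are known as latent factors of early responses. RefSeq windows (GRCm38.p6) from 250 bases before to 50 bases after a start were found for 16 of the 19 genes. The windows of Ppp1r15a, Dusp1, Nfkbid, Nfkbia, Ier3, Zfp36 and Tnf are given 5′ to 3′ along the gene, since they hold the kinds of match found, and capitals mark the matches (a match on the opposite strand stands as its reverse complement). They lie at chr7:45526219-45526518 (minus strand) for Ppp1r15a, chr17:26508423-26508722 (minus strand) for Dusp1, chr7:30422156-30422455 (plus strand) for Nfkbid, chr12:55492598-55492897 (minus strand) for Nfkbia, chr17:35821463-35821762 (plus strand) for Ier3, chr7:28379179-28379478 (minus strand) for Zfp36 and chr17:35201958-35202257 (minus strand) for Tnf. The matches in capitals are, for Ppp1r15a and Dusp1, the cyclic AMP response element TGACGTCA, for Nfkbia, Ier3 and Nfkbid the NF-κB motif, for Zfp36 the CArG box to which SRF binds, and for Tnf the TATA box. The window of Nfkbid also holds the cyclic AMP response element, and those of Ppp1r15a and Nfkbia also hold TATAAA.
Ppp1r15a: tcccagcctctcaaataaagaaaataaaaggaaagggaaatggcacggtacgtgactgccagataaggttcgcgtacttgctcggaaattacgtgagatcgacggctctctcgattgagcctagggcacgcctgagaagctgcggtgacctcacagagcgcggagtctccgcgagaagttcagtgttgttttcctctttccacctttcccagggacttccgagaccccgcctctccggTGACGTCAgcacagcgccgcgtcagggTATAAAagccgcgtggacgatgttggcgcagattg
Dusp1: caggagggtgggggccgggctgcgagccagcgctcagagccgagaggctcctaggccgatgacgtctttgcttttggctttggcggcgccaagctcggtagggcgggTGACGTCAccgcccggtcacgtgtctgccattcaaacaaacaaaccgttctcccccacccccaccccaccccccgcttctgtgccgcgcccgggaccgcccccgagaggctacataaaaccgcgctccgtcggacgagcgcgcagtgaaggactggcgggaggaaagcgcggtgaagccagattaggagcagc
Nfkbid: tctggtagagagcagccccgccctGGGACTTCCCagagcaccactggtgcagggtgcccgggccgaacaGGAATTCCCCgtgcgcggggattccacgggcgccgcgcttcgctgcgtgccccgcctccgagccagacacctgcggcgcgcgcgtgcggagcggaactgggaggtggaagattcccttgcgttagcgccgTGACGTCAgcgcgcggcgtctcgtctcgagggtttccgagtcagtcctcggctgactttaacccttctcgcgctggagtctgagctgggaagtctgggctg
Nfkbia: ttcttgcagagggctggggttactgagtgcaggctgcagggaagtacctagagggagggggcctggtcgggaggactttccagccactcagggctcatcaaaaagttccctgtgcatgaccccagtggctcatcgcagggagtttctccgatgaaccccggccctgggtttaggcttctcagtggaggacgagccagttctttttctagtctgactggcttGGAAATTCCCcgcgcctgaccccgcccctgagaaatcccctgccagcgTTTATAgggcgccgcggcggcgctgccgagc
Ier3: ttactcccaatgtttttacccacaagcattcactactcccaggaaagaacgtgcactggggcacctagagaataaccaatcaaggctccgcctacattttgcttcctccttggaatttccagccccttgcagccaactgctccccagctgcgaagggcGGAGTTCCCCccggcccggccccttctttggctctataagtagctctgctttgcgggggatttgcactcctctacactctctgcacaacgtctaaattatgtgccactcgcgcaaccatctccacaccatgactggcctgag
Zfp36: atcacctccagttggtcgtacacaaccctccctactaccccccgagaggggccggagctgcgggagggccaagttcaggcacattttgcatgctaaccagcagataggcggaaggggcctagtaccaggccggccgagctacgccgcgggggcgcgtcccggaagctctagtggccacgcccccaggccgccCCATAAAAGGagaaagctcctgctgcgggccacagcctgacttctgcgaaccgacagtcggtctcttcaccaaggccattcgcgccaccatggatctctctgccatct
Tnf: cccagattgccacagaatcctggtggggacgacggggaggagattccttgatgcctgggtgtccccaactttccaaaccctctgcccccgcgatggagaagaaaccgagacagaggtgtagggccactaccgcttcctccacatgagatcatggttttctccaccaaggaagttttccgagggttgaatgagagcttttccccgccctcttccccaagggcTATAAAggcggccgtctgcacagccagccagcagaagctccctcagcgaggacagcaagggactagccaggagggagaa

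The NF-κB motif stood near a start of 4 of the 16 genes (25%), Fos, Ier3, Nfkbia and Nfkbid, against 5.95% of the 7071 genes compared that had at least 1000 reads and a window, and 4.51% of all 32851 windows. A gene was counted when any of its windows held the motif. In the Nfkbid window it occurred at 2 places, and the window belongs to 1 of 3 annotated starts. The cyclic AMP response element, TGACGTCA, stood in 4 genes (25%), Btg2, Dusp1, Nfkbid and Ppp1r15a, against 4.04% and 1.79%. The sequence TATAAA stood in 5 genes (31.3%), Fos, Junb, Nfkbia, Ppp1r15a and Tnf, against 8.09% and 13.6%, and in Tnf and Fos it began at positions -29 and -33 relative to the start. In Ppp1r15a, Junb and Nfkbia it lay at or after the start. The CArG box stood in 1 gene, Zfp36, against 1.43% and 1.63%, and the AP-1 motif TGANTCA in none against 5.30% and 7.81%.

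All motifs were read on both strands, a base could belong to more than 1 motif, and a match describes letters only and is not evidence of binding. Nor does a missing match mean that a gene lacks a site. The study describes NF-κB sites in the promoter of Tnf, whose window held no match to the motif used here. With 16 genes, 1 gene moves a share by 6.25 percentage points. Over the 61 of all 83 genes called higher that had a window, the NF-κB motif stood in 14.8%, among them Cxcl2, Ccrl2, Il2ra and Nr4a1, and the cyclic AMP response element in 9.84%. In the 30 genes called lower with a window these shares were 6.67% and 0 of 30. Over all 8913 genes compared that had a window they were 6.08% and 3.85%.

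Several genes with few reads were among the 20 largest corrected ratios. Rorb, Mir1938, Adm and BC033916 reached the minimum of 50 reads only in the 15 min library. They entered through the library in which they were high, which favours large ratios, so their ratios are descriptions only. The same holds for other genes called higher with under 50 reads at 0 min, such as Il1b and Il2ra. Rorb, a retinoid-related orphan receptor of neural tissue, had 15 reads at 0 min and 106 at 15 min, a corrected ratio of 6.80 with the interval from 3.94 to 12.6. Its normalized count was 12.8 without LPS and lay between 59.9 and 132.7 in the 7 other libraries. The untreated library alone was low. Fndc7 had 68 and 198 reads (3.15, from 2.38 to 4.22), and Ccrl2, an atypical receptor that binds chemerin, 50 and 115 reads (2.58, from 1.83 to 3.67). Both were higher in each later library than at 15 min, Ccrl2 with 698 normalized counts at 30 min and 1433 at 90 min.

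Mir1938, a miRNA locus of 100 bases on chromosome 12 from 40222712 to 40222811 (GRCm38), had 26 reads at 0 min and 66 at 15 min. It lies within Ifrd1, inside the bounds of 7 annotated transcripts and outside every exon of that gene in GENCODE vM21, which places it in an intron. The corrected ratio of Mir1938 was 3.19 (2.00 to 5.24). In normalized counts it stood at 22.2, 62.8, 214.5, 73.4 and 23.2 at 0, 15, 30, 45 and 60 min. Ifrd1, an interferon-related immediate early gene chosen here for its position after the values were seen, stood at 15509, 14907, 25626, 50694 and 55593. The count at the intronic locus was higher at 15 min than at 0 min. The exonic count of Ifrd1 had a corrected ratio of 0.923. Since Mir1938 entered the comparison through the library in which it was higher, this contrast is a description only. Whether the intron rose before the exons was not tested. A library of this kind does not select mature miRNA, and whether these reads come from the miRNA or from the Ifrd1 precursor was not tested.

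Adm, the gene of the vasodilator adrenomedullin, had 48 and 96 reads, and BC033916 had 25 and 51. Their later values did not keep the order of the early risers: at 30 min Adm stood at 54.0 normalized counts against 91.4 at 15 min, and BC033916 at 33.6 against 48.5. The remaining genes called higher with under 1000 reads had corrected ratios from 1.5 to 2.20. Of the 83, 22 stood on any of the lists.

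Of the 53 genes called lower, 24 were protein-coding and 17 were small non-coding RNAs. Over all 11045 genes compared, 10589 were protein-coding. Genes without an mRNA accession, small or long, made up 52.8% of the 53, against 4.13% of all genes compared and 1.24% of those with at least 1000 reads. Among the 8 with at least 1000 reads, 7 were small non-coding RNAs, Snord17, Snora74a, Snora68, Snord22, Scarna6, Rnu6 and Vaultrc5, and the eighth was Rgs1. Small nucleolar RNAs and Cajal body RNAs guide the chemical modification of ribosomal and spliceosomal RNA. Snord17 went from 9667 to 3831 reads, a corrected ratio of 0.493 (0.475 to 0.512), and Scarna6 from 8650 to 3864 reads, 0.553. Rnu6, the U6 RNA of the spliceosome, which has many near-identical copies in the genome and is uncertain for that reason, went from 3647 to 1692 reads, 0.583.

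Of 53 small nucleolar and Cajal body RNAs that could be compared, 51 had a ratio of 15 min to 0 min below 1 before the length correction and 48 after it. By the rule, 13 were called lower (24.5%, against 0.48% over all genes) and none higher. Of the 13, Snora23, Snora47, Scarna3b and Snora30 reached the minimum of 50 reads only at 0 min, which favours low ratios. The median ratio of the 53 before the correction was 0.698, and their median corrected log2 ratio was -0.35. Their median normalized count in the order of time was 391.8, 252.2, 390.6, 198.8, 472.8, 330.9, 411.4 and 449.8. The low values at 15 and 45 min stood between values near or above that of the untreated cells. The share of Rn45s was high in the same libraries, 12.96% at 15 min and 16.64% at 45 min, and low at 0, 30 and 60 min. It was also high at 75 and 90 min. The part of this in the lower small RNA counts was not tested. These RNAs are 70 to 414 bases long, a range in which the 200 nearest genes reach to much longer transcripts, so that the correction for length is weakest there.

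Rgs1 was the only protein-coding gene among the well-counted ones called lower, with 4530 and 2699 reads and a corrected ratio of 0.632 (0.603 to 0.663). It did not stay low. Its normalized counts were 3875, 2568, 5516, 7634 and 16618 from 0 to 60 min, so that 15 min was its lowest point. Its relative Rgs16 went from 192 to 108 reads, a corrected ratio of 0.633, and stood at 1932 normalized counts at 120 min. Rgs2 had a corrected ratio of 0.825 and was not called.

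Itgax and Rgs16 are named after their values were seen. Itgax, the gene of the integrin CD11c, went from 923 to 492 reads, a corrected ratio of 0.566 (0.506 to 0.632). In normalized counts it was at 790, 468, 798, 529 and 741 at 0, 15, 30, 45 and 60 min. Pdcd1, which encodes the receptor PD-1, had 55 and 17 reads, and its normalized counts were 47.1, 16.2, 43.4 and 18.1 from 0 to 45 min. Dmp1, a matrix protein of bone and dentine, had 79 and 26 reads, with 67.6, 24.7, 54.0 and 23.7. Pdcd1 and Dmp1 reached the minimum of 50 reads at 0 min but not at 15 min, which favours low ratios. The same holds for every other gene called lower with under 50 reads at 15 min, among them Isg15. Itgax, Pdcd1 and Dmp1 were low at 15 and 45 min, the libraries in which the small RNAs were low, and higher at 30 min. Dmp1 was low later as well, with 16.9, 21.6 and 24.3 normalized counts at 75, 90 and 120 min. In those libraries Pdcd1 stood at 57.7, 76.2 and 231.0, and Itgax at 598.5, 646.2 and 1184.9. The 53 genes called lower had their lowest value at 15 min in 19 cases and at 45 min in 17. Over all 11045 genes compared, 1019 were lowest at 15 min and 1675 at 45 min. Genes chosen for a fall to 15 min are more likely to be lowest there.

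**Figure D5:**
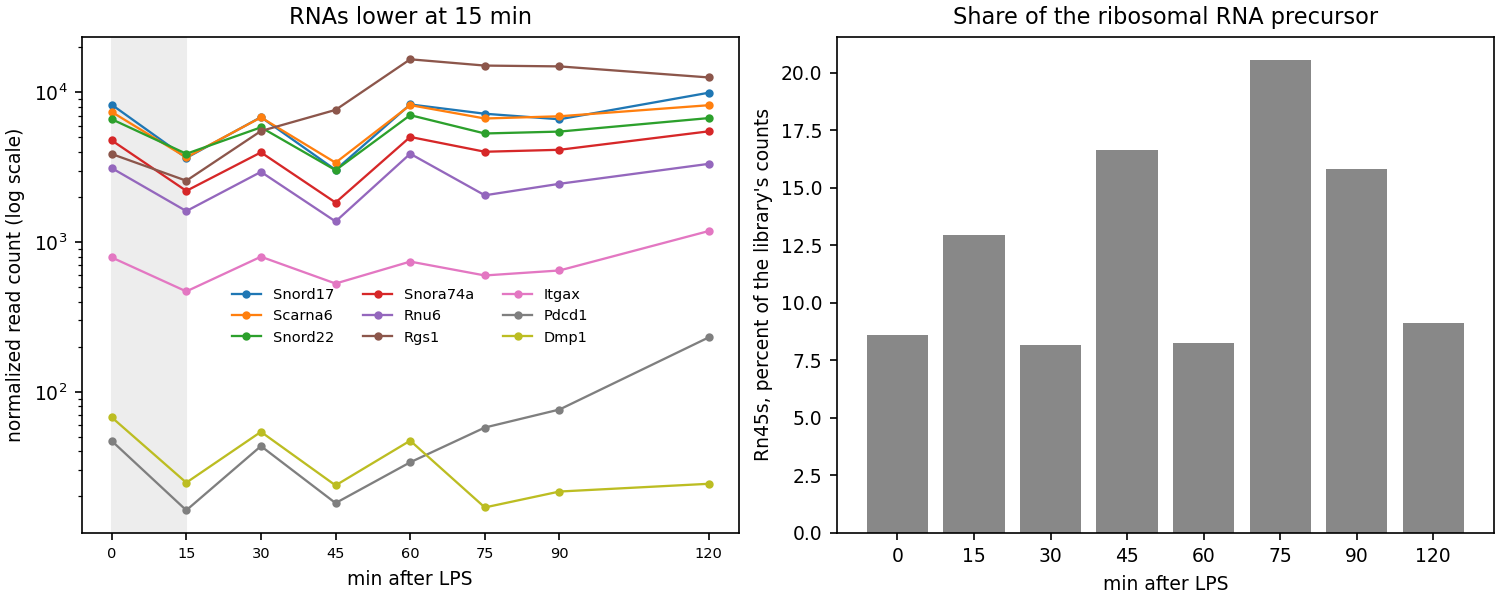
Left, normalized read count (vertical log axis) of 9 RNAs called lower at 15 min against minutes after LPS, with 1 library per point; right, the share of Rn45s in percent of each library's counts. The small RNAs, Itgax, Pdcd1 and Dmp1 are lower at 15 and 45 min than at 0, 30 and 60 min. Dmp1 is also low from 75 min on, and Rgs1 dips at 15 min alone. The Rn45s share is 12.96% at 15 min and 16.64% at 45 min against 8.59%, 8.18% and 8.27% at 0, 30 and 60 min.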

How the data were processed

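RNA of RAW264.7 cells was sequenced by the authors in 1 library per time point, and the deposited table holds raw read counts per gene symbol, not normalized. According to the methods, Bowtie placed reads of 58 bases on the RefSeq transcripts of mm10 (refGene), allowing 2 mismatches, and reads matching more than 1 symbol were discarded. Spike-in transcripts of rabbit β-globin and firefly luciferase were part of the index. The submitters' processing notes name CASAVA 1.8.2 and DESeq 1.10.1. Whether counting used the strand is not given in the sources used here. No column was left unused. The 2 entries without an accession, BGIVT and FLIVT, made up 0.0275% of the counts at 0 min and 0.0253% at 15 min and were not compared. No source used here pairs these 2 names with the spike-in transcripts. BGIVT and FLIVT are among 46 entries with at least 50 reads that lacked a length.

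Total counts were 131039483 at 0 min and 123434945 at 15 min. Median-of-ratios size factors over the 8 libraries (1.17 and 1.05), the ratio with its exact Clopper-Pearson 95% interval, and the median log2 ratio of the 200 genes nearest in transcript length were computed with scipy 1.17.1, pandas 2.3.3 and numpy 2.4.6 under Python 3.11.15. A gene needed 50 reads in 1 library. Lengths came from GENCODE vM21 (GRCm38), by accession for 10926 genes and by symbol for 119. Intervals and limits for a count of 0 cover counting error only. No quasi-likelihood test could be fitted to 2 single libraries. As an alternative, edgeR 4.0.16 (R 4.3.3) ran an exact test whose dispersion came from treating all 8 libraries as replicates. The code was tested on simulated data for 15 against 0 min at a dispersion of 0.005. Of 200 genes changed 2-fold among 10956, all drawn from genes with a mean count of at least 100, 199 were found. Of 10756 unchanged genes, 19 were called higher and 16 lower. The finding of changed genes with fewer reads was not tested.

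The gene lists and the genes followed were chosen with earlier results of these data known. Named were the marker genes of the early response, the 20 highest and 10 lowest corrected ratios among the calls, up to 4 risers and 2 fallers of each list, and Rn45s; the calls with at least 1000 reads and any other gene were named after their values were seen. Promoter windows came from RefSeq (GRCm38.p6). One of the reference genes is not reported here by name.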

Additional observations from a re-analysis of the deposited data

How the results depend on the processing

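The counts of called genes depended on the limits set. The number of genes higher at 15 min was 83, and it was 136 with a minimum of 10 reads, 148 with no minimum, 55 with 100 reads, 27 with a 2-fold limit and 33 when the whole interval had to pass 1.5-fold. The number lower was 53, and it was 24, 10 and 11 with 100 reads, the 2-fold limit and the whole interval. Refitted on genes with at least 1000 reads alone, an alternative chosen after the data were examined, it gave 20 higher and 8 lower, and with mRNA accessions only, also chosen afterwards, 26 lower. The edgeR exact test with the dispersion of the 8 libraries gave 21 higher and 7 lower at an unadjusted p under 0.05 and a log2 ratio past 0.5 in size, and with Benjamini-Hochberg adjustment 1 higher (Ppp1r15a, adjusted p = 0.0103) and 0 lower. That dispersion counts the response over time as noise.

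The corrected ratio of Tnf was 3.31 without the length correction, 3.55 with the longest annotated transcript and 3.55 with a further correction for GC content, and that of Ier3 was 2.99 without the length correction. Zfp36 and Nfkbiz stayed between 3.09 and 3.15 and between 3.53 and 3.70. The 20 genes with the highest corrected ratios stayed called higher with the changed length and GC corrections and with a pseudocount of 1. Of these 20, Mir1938, BC033916 and Adm had under 100 reads in both libraries and dropped out at that minimum. They were also absent from the unadjusted calls of the edgeR test. Total counts, total counts without Rn45s, TMM, size factors of the 2 libraries alone and BGIVT with FLIVT (chosen afterwards) cannot change a corrected ratio, since the length correction removes any common factor. No paired analysis was possible because each time point is 1 library and the labels carry no replicate numbers. With 1 culture per time point, differences between cultures cannot be told apart from those of LPS, and under 100 reads the calls in both directions were about equally frequent.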
